A study of Danio rerio with 6 samples.

Results

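Genes of peroxisomal oxidation and peroxisome assembly were followed in hepatocytes of zebrafish larvae with raised expression of lcat. They form a list of gene names by role, with no threshold on their values: 18 names of enzymes and membrane transporters, and 14 names of the pex family. Of these 32 names, 31 were gene symbols in the deposited table of 23745 genes, 17 of them enzymes or transporters and 14 pex genes. The remaining name, abcd2, belongs to a row listed as LOC101882118 and was matched through its NCBI gene number. It is described apart and is not counted. A filter on low counts kept 30 of the 31 genes for testing and left out pex5lb.

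Both groups consisted of 3 samples of 2000 cells sorted by fluorescence from larvae at 6 days post fertilisation, and poly(A) RNA was sequenced. The lcat OE larvae carried Tg(fabp10a:lcat-T2A-mCherry; fabp10a:eGFP), in which the promoter of the liver gene fabp10a drives lcat together with a red reporter, and also drives a green reporter. The CTL larvae carried Tg(fabp10a:eGFP), that is, the green reporter alone. The study asked which transcripts change when excess lcat, the enzyme that esterifies cholesterol on lipoproteins, leads to early fat accumulation in the liver. No group carried the red reporter without lcat, so effects of lcat and of the red reporter or the line cannot be told apart. The labels do not state whether replicates came from separate clutches or sorts, so the p-values rest on differences among these libraries, part of which may be technical.

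Peroxisomes are organelles that shorten very long, branched and other unusual fatty acids, and in the liver also the side chain of bile acid precursors. Acyl-CoAs enter through ABC transporters of subfamily D, are oxidised by an acyl-CoA oxidase that makes hydrogen peroxide, and pass through a bifunctional enzyme and a thiolase. The shortened products leave as carnitine esters or free acids, and catalase removes the peroxide. The enzymes are made in the cytosol and imported by the pex proteins, or peroxins, which also insert the membrane proteins and divide the organelle. Most of these roles were worked out in yeast and mammals, and they are given here as background for the zebrafish genes.

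The libraries held 23336591 to 24890856 counts. As a check of the labels, lcat had 3255, 2610 and 1958 CPM (read counts scaled to library size with TMM factors) in lcat OE and 149, 120 and 144 CPM in CTL, without overlap. The hepatocyte gene fabp10a had 9853 ± 1103 CPM in lcat OE and 8990 ± 527 CPM in CTL (SD, n = 3 each; adjusted p = 0.427). All 20 hepatocyte markers were detected, with 2 called higher and 1 lower. Their summed level was 391300 to 399000 TPM (transcript abundance scaled by length and library) in lcat OE and 348600 to 364200 TPM in CTL. Markers of other cell types were detected. The summed level of 14 epidermal markers was 5174 to 8848 TPM in lcat OE and 456.5 to 770.3 TPM in CTL, with 10 of 14 called higher and 2 lower. Of 14 exocrine pancreas markers 0 were called higher and 7 lower, and they summed to 52.9 to 278.5 TPM in lcat OE and 873.3 to 2189 TPM in CTL. Muscle markers (3.65 to 5.11 TPM in lcat OE and 24.77 to 66.14 TPM in CTL, 6 of 9 tested lower), neural and photoreceptor markers (2.89 to 4.16 TPM in lcat OE and 25.78 to 41.89 TPM in CTL, 8 of 11 lower) and xanthophore markers (23.55 to 26.74 TPM in lcat OE and 81.47 to 216.6 TPM in CTL, 6 of 7 tested lower) were also lower in lcat OE. Of the xanthophore markers, aox5 and slc2a11b were at 0 in all lcat OE libraries. Biliary markers summed to 501.1 to 716.6 TPM in lcat OE and 747.5 to 817.2 TPM in CTL (3 of 7 higher, 1 lower), and enterocyte markers to 276.1 to 360.1 TPM in lcat OE and 181.8 to 198.2 TPM in CTL (2 of 3 tested higher, 1 lower). Macrophage markers were at 2.08 to 4.35 TPM in lcat OE and 0.82 to 2.33 TPM in CTL (2 of 4 tested higher), and erythroid markers at 19.88 to 80.34 TPM in lcat OE and 60.07 to 132.8 TPM in CTL (0 of 4 tested called). The part of these cells in the results below was not tested, and in such bulk samples fewer cells of a type and less RNA per cell cannot be told apart.

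The peroxisomal genes moved in both directions, and more of the enzyme genes than of the pex genes passed the test. Of the 30 tested genes, 10 rose and 5 fell in lcat OE (edgeR, adjusted p under 0.05 over all genes), 50.0% of the group, where 32.6% of all 14096 tested genes were called. Among enzymes and transporters 8 of 17 rose and 4 fell, or 70.6%; among pex genes 2 of 13 rose and 1 fell, or 23.1%. Among all genes 16.3% were called higher and 16.3% lower. Of 8553 genes within the same range of mean CPM as the enzymes and transporters 37.4% were called, 19.1% higher and 18.3% lower. Of 5912 genes within the range of the tested pex genes 36.7% were called, 17.8% higher and 18.9% lower. The enzyme share thus lay above its background and the pex share below; the difference between the shares was not tested. The pex genes were less abundant, with a median of 7.98 CPM against 41.3 CPM for the enzymes and transporters, and their fold changes had a median standard error of 0.14 against 0.11 on the log2 scale.

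All 30 fold changes were below 2-fold. On the log2 scale they ran from -0.72 to 0.84, and 0 of the 15 called members reached 2-fold, while 2339 of the 4596 called genes of the whole table (50.9%) did. The median log2 fold change was 0.35 over the enzymes and transporters, 0.20 over the pex genes and -0.02 over all tested genes. The CPM of the groups did not overlap for 21 of the 30 members, 15 higher and 6 lower in lcat OE, where 47.7% of all tested genes did not overlap, 23.6% higher and 24.1% lower. The share of calls that were higher depended on the scale. With TMM scaling 66.7% of the called members were higher. This share was 50.0% with library totals (5 higher, 5 lower) and 37.5% by limma on log2(TPM + 1) (3 higher, 5 lower). For all called genes these shares were 49.9%, 38.8% and 30.2%. Among members the 5 lower calls remained on these scales and higher calls were lost, while no called member changed sign. The number of calls depended on the scale too. With library totals 10 of 30 members and 4311 of 14096 genes were called, and on log2(TPM + 1) 8 of 30 and 4358 of 14096. The share of members called was thus close to that of all genes with library totals and below it on log2(TPM + 1). Split by class, 8 of 17 enzymes and transporters and 2 of 13 pex genes were called with library totals. On log2(TPM + 1) these were 7 of 17 and 1 of 13. On both scales the enzyme and transporter share lay above that of all genes and the pex share below it. Among 8437 genes with at least 1 TPM the ratio of lcat OE to CTL was shifted by a median of -0.18 on the log2 scale when TPM was used in place of CPM. Of the 15 called members, all without overlap in CPM, the 4 genes crot, eci2, hacl1 and pex19 overlapped between the groups in TPM. Conversely, the uncalled hsd17b4, pex14 and pex3 overlapped in CPM but not in TPM, where all were lower in lcat OE. The share of all genes without overlap in TPM is not given here, so these TPM counts have no background. Calls over all genes leaned lower on that scale, with 1318 higher and 3040 lower by limma on log2(TPM + 1). Called under all 14 alternatives were 5 members: scp2b, amacr and pecr, which rose, and acox3 and decr2, which fell.

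**Figure D1:**
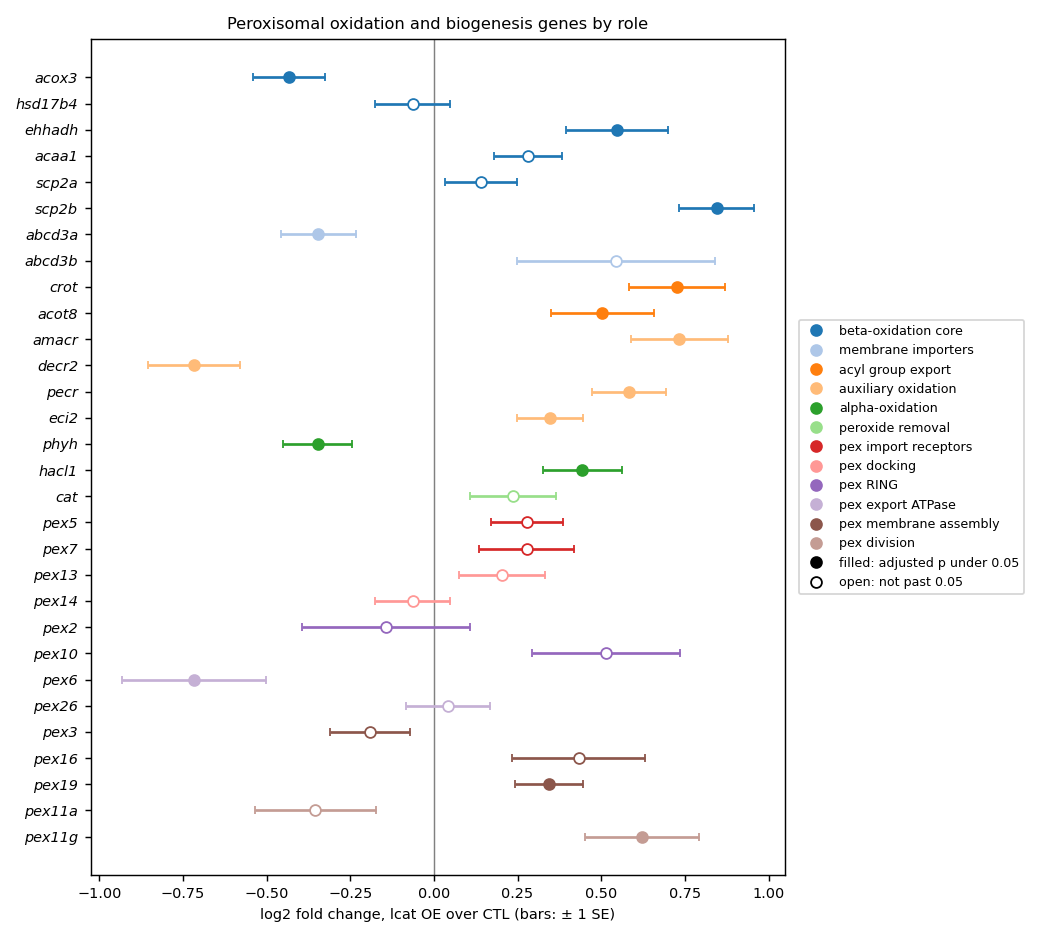
Log2 fold change of lcat OE over CTL (x axis, bars ± 1 standard error) for the 30 tested members (y axis), coloured by role, filled where the adjusted p was under 0.05. Filled points lie on both sides of 0, from decr2 and pex6 at -0.72 to scp2b at 0.84.

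The summed level of the 17 enzymes and transporters was almost the same in both groups, 1327 ± 63.5 TPM in lcat OE and 1331 ± 23.7 TPM in CTL (SD, n = 3 each). For the 14 pex genes the sums were 73.7 ± 5.29 TPM in lcat OE and 75.4 ± 3.13 TPM in CTL. The groups overlapped for both sums, and the means differed by less than the SD of either group. The most abundant members by TPM were scp2a, which encodes a sterol carrier protein with a thiolase form, and cat, which encodes catalase. They held 37.7% and 25.6% of the enzyme and transporter sum in lcat OE, and 36.0% and 24.6% in CTL. After them came eci2 at 136.6 TPM in lcat OE and 121.9 TPM in CTL, and then acaa1, hsd17b4, phyh and abcd3a between 47.9 and 87.2 TPM in either group. The order of these levels differed between the groups: by mean TPM phyh ranked below hsd17b4 and acaa1 in lcat OE and above both in CTL, and decr2 had rank 11 in lcat OE and rank 8 in CTL. Among pex genes pex19 was the most abundant, at 17.6 ± 1.72 TPM in lcat OE and 15.7 ± 0.31 TPM in CTL, followed by pex3 and pex26.

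**Figure D2:**
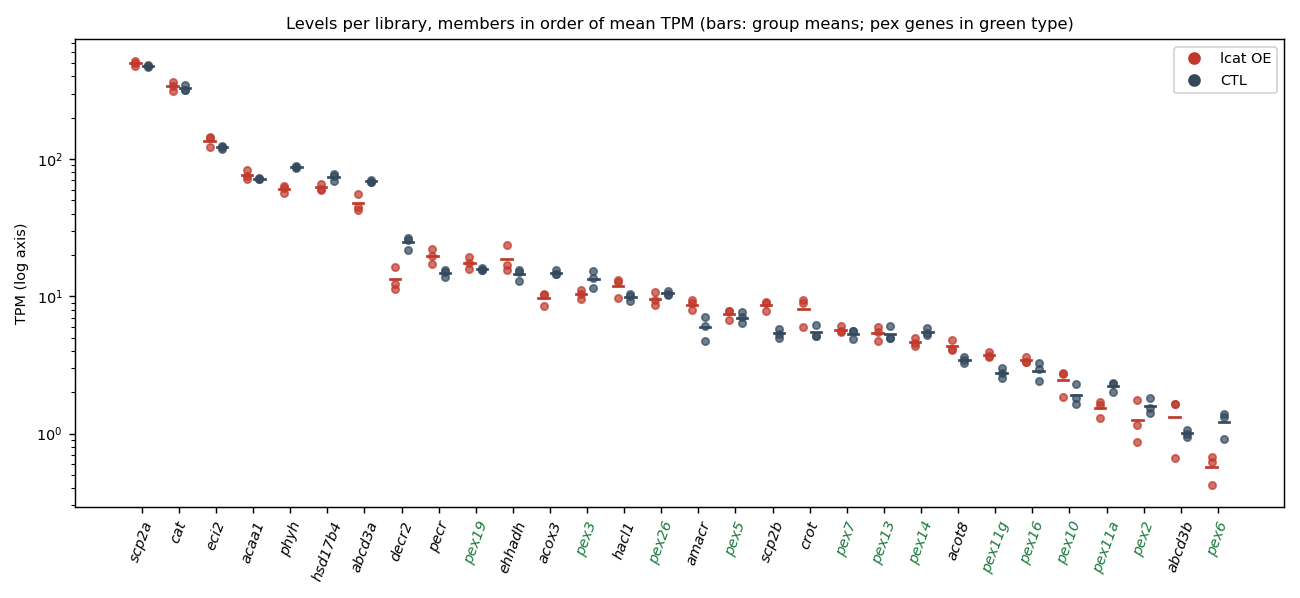
TPM per library (y axis, log scale) of the 30 tested members in order of mean level (x axis), with lcat OE left of CTL and bars for the group means. Levels span from 499.6 TPM of scp2a to 0.573 TPM of pex6 in lcat OE, and the separated pairs include phyh, abcd3a, decr2 and acox3 below CTL and scp2b above it.

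At the entry and the first step of oxidation, the genes that passed the test were lower in lcat OE. The transporter gene abcd3a encodes the homologue of mammalian PMP70, which brings branched-chain and long-chain acyl-CoAs and bile acid intermediates into the organelle. It had 172, 144 and 158 CPM in lcat OE and 215, 190.4 and 198 CPM in CTL. Every lcat OE library lay below every CTL library, and the log2 fold change was -0.35 (SE 0.11, adjusted p = 0.0363). The less abundant paralog abcd3b had 3.41, 3.61 and 1.68 CPM in lcat OE and 2.20, 1.82 and 1.97 CPM in CTL. Here lcat OE 3 lay below all CTL libraries and the other two lay above them, and the log2 fold change of 0.54 (SE 0.30) did not pass (adjusted p = 0.187). Without lcat OE 3 the abcd3b value was 0.84 (adjusted p = 0.0234, within 0.0234 to 0.50 over 13 alternatives). The row of abcd2, a transporter gene for very long chain acyl-CoAs, had 0.882 to 1.60 CPM in lcat OE and 1.07 to 2.20 CPM in CTL, and the groups overlapped (adjusted p = 0.604).

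The oxidase gene acox3, whose mammalian product acts on branched-chain acyl-CoAs, had 46.4, 48.1 and 46.3 CPM in lcat OE and 68.6, 59.5 and 62.2 CPM in CTL. The 3 lcat OE libraries lay close together and below CTL, at -0.43 on the log2 scale (SE 0.11, adjusted p = 0.0105) and 1.35-fold lower. This call passed under all 14 alternatives. The abcd3a call was lost when lcat OE 2 (adjusted p = 0.121), lcat OE 3 (0.0515), CTL 1 (0.135), CTL 2 (0.066) or CTL 3 (0.0853) was left out, and ranged from 0.0123 to 0.135 over the alternatives. It was also lost with the DESeq2 Wald test (0.0563) and with the replicate number as a block (0.0627).

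The second step is carried out by bifunctional enzymes that hydrate and dehydrogenate the enoyl-CoA. The gene hsd17b4 encodes the form that handles branched-chain and bile acid intermediates, and ehhadh the form that acts on straight-chain and dicarboxylic acyl-CoAs. In CPM ehhadh had 41.5, 60.0 and 45.7 in lcat OE and 37.4, 33.4 and 29.9 in CTL. All lcat OE libraries lay above CTL and lcat OE 2 stood highest, and the log2 fold change was 0.55 (SE 0.15, adjusted p = 0.0188). By contrast, hsd17b4 had 187, 179 and 203 CPM in lcat OE and 217, 193 and 184 CPM in CTL, with overlap (log2 fold change -0.06, SE 0.11, adjusted p = 0.702). The ratio of ehhadh to hsd17b4 in TPM was 0.256, 0.385 and 0.259 in lcat OE and 0.198, 0.199 and 0.187 in CTL. All 3 lcat OE ratios exceeded all CTL ratios (exact permutation test, two-sided p = 0.10, the smallest that 3 against 3 can give; adjusted p = 0.14 over 7 ratios computed). In TPM hsd17b4 did not overlap and was lower, at 59.6 to 66.4 in lcat OE and 69.2 to 77.8 in CTL. As ehhadh was higher in TPM in every lcat OE library than in CTL, the separation of the ratios was fixed in advance. The gap of ehhadh in TPM was very narrow, with 15.44 in lcat OE 3 and 15.43 in CTL 1. The ehhadh call was lost without lcat OE 2 (adjusted p = 0.0613), CTL 2 (0.0635) or CTL 3 (0.0844), and ranged from 0.00345 to 0.161 over 14 alternatives; library totals (0.0577) and log2(TPM + 1) (0.161) ended it too.

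The last step, thiolysis, is shared by acaa1, the straight-chain thiolase, and by the thiolase form made from scp2 genes. In lcat OE acaa1 had 142, 135 and 148 CPM, against 122, 113 and 114 CPM in CTL. These did not overlap, yet the log2 fold change of 0.28 (SE 0.10) missed the threshold (adjusted p = 0.0586), with 2 of 14 alternatives past it. The abundant scp2a had 1042, 1045 and 1184 CPM in lcat OE and 1031, 938 and 1000 CPM in CTL (log2 fold change 0.14, SE 0.11, adjusted p = 0.353). Its paralog scp2b rose by the largest factor of the 30 tested members. It had 25.1, 26.5 and 26.9 CPM in lcat OE and 15.2, 15.1 and 13.5 CPM in CTL, and the groups were far apart (log2 fold change 0.84, SE 0.11, adjusted p = 0.00032, 1.80-fold). The ratio of scp2b to scp2a in TPM was 0.0173, 0.0179 and 0.0166 in lcat OE and 0.0111, 0.0124 and 0.0103 in CTL. Thus scp2b was the rarer of the pair in both groups, with all lcat OE ratios above CTL (exact permutation test, two-sided p = 0.10, adjusted p = 0.14). In TPM scp2b alone separated the groups, at 7.87 to 9.04 in lcat OE and 5.01 to 5.81 in CTL. As scp2a only ran from 470.35 to 521.43 TPM over all libraries, the separation of the ratios was fixed in advance. The scp2b call passed under all 14 alternatives.

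**Figure D3:**
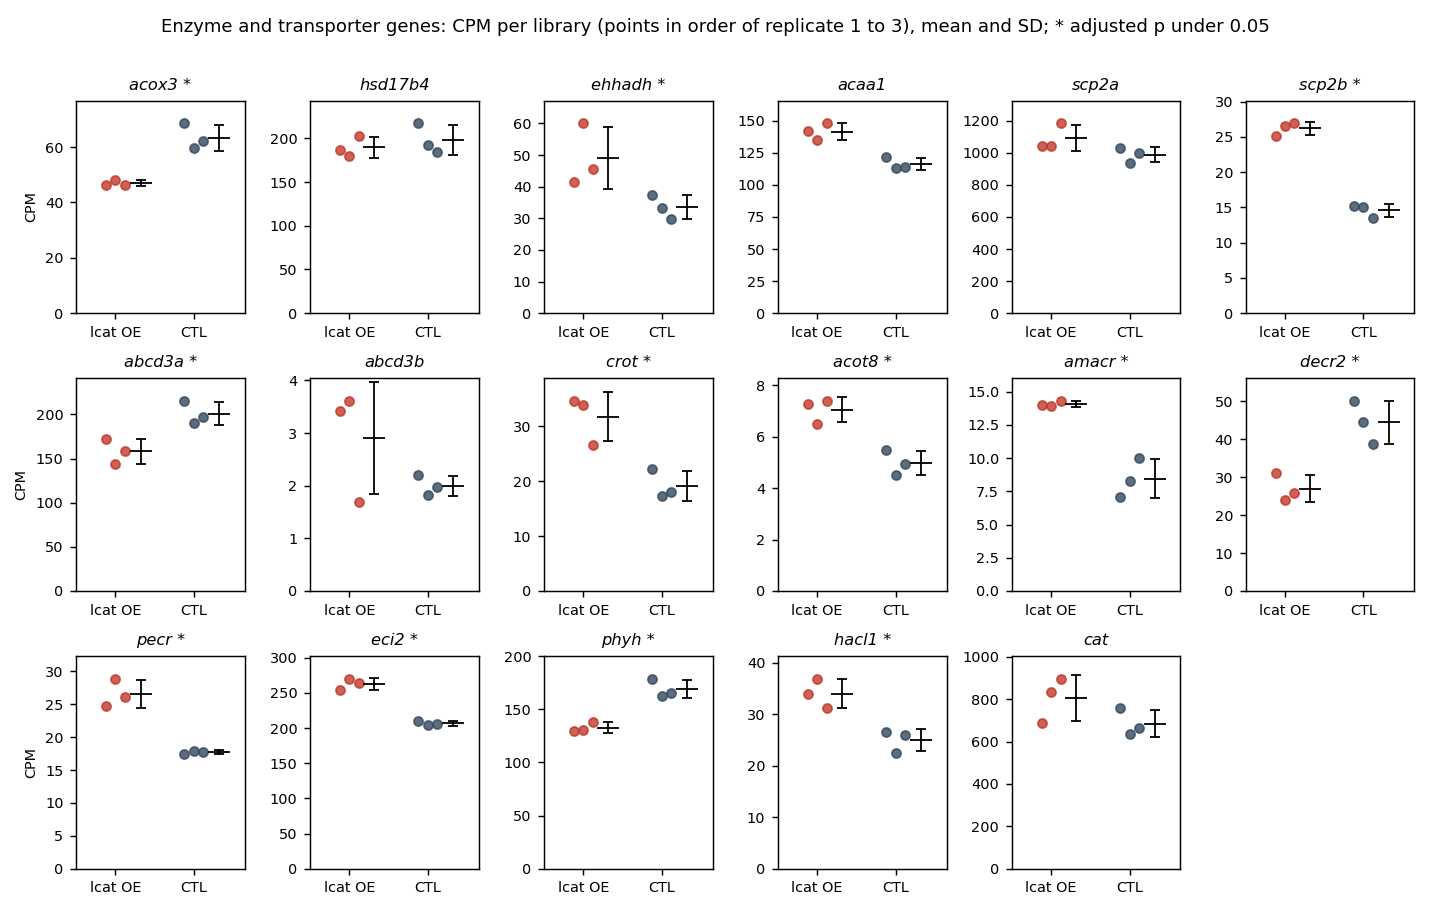
CPM per library (y axes, each from 0) of the 17 enzyme and transporter genes in lcat OE (left in each panel) and CTL (right), with the mean and SD beside the 3 points and an asterisk where the adjusted p was under 0.05. For scp2b the lcat OE points sit between 25.1 and 26.9 CPM, above the CTL points at 13.5 to 15.2 CPM, while for decr2 and acox3 the lcat OE points sit below CTL.

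Both members listed for the release of shortened products rose in CPM. The gene crot encodes carnitine octanoyltransferase, which turns medium-chain acyl-CoAs into carnitine esters. It had 34.5, 33.9 and 26.6 CPM in lcat OE and 22.2, 17.3 and 17.9 CPM in CTL. The groups did not overlap, although lcat OE 3 was lower than the other lcat OE libraries, and the log2 fold change was 0.73 (SE 0.14, adjusted p = 0.0034). The thioesterase gene acot8, whose product cleaves acyl-CoAs to free acids, had 7.28, 6.49 and 7.38 CPM in lcat OE and 5.46, 4.52 and 4.94 CPM in CTL. It was higher in all 3 lcat OE libraries (log2 fold change 0.50, SE 0.15, adjusted p = 0.028). The crot call missed under 1 of 14 alternatives, log2(TPM + 1) (adjusted p = 0.0699, within 0.000165 to 0.0699). That of acot8 was lost without lcat OE 1 (adjusted p = 0.067), lcat OE 3 (0.0552), CTL 2 (0.109) or CTL 3 (0.0758), within 0.0228 to 0.138 over 14 alternatives. It was also lost with library totals (0.085), the DESeq2 Wald test (0.0625) and log2(TPM + 1) (0.138).

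The auxiliary enzymes, which adjust double bonds and stereochemistry so that unusual acyl chains can be handled, all passed the test, with 3 of 4 higher and 1 lower. The racemase gene amacr, needed for branched-chain acyl-CoAs and bile acid precursors, had 14.02, 13.91 and 14.3 CPM in lcat OE and 7.07, 8.32 and 9.995 CPM in CTL. The lcat OE libraries were nearly equal and lay above a wider CTL spread (log2 fold change 0.73, SE 0.15, adjusted p = 0.00353, 1.66-fold). The reductase gene pecr, which encodes an enoyl-CoA reductase that saturates the chain, had 24.7, 28.9 and 26.0 CPM in lcat OE and 17.4, 17.96 and 17.81 CPM in CTL. Its groups were well separated (log2 fold change 0.58, SE 0.11, adjusted p = 0.00271). Opposite in direction, decr2, the peroxisomal dienoyl-CoA reductase used for polyunsaturated chains, had 31.05, 24.01 and 25.94 CPM in lcat OE and 50.05, 44.56 and 38.62 CPM in CTL. It was lower in every lcat OE library (log2 fold change -0.72, SE 0.14, adjusted p = 0.00295, 1.64-fold lower).

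The reductase genes pecr and decr2 differed in order between the groups. The ratio of pecr to decr2 in TPM was 1.2, 1.8 and 1.51 in lcat OE and 0.521, 0.603 and 0.695 in CTL, so that pecr was the more abundant in all lcat OE libraries and decr2 in all CTL libraries. The difference of the mean log2 ratio was 1.3 (exact permutation test, two-sided p = 0.10, the smallest possible; adjusted p = 0.14). In TPM pecr was higher and decr2 lower in every lcat OE library than in CTL, so the separation of the ratios was fixed in advance. The calls of amacr, pecr and decr2 passed under all 14 alternatives. The isomerase gene eci2, whose product shifts double bonds and is found in mitochondria as well as peroxisomes, had 254, 270.1 and 264 CPM in lcat OE and 210.3, 204 and 206 CPM in CTL. The groups did not overlap in CPM (0.35 on the log2 scale, SE 0.10, adjusted p = 0.0214). In TPM they did, at 122.6 to 144.8 in lcat OE and 118.6 to 124.8 in CTL. The eci2 call was lost without lcat OE 2 (adjusted p = 0.0537), CTL 1 (0.0568), CTL 2 (0.0935) or CTL 3 (0.0837), within 0.00619 to 0.222 over 14 alternatives. Library totals (0.0611), log2(TPM + 1) (0.222) and the replicate number as a block (0.0679) ended it too.

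The alpha-oxidation genes, which remove a single carbon from phytanic acid and similar branched chains, moved apart. The first enzyme, phytanoyl-CoA hydroxylase, is encoded by phyh, which had 129, 131 and 138 CPM in lcat OE and 179, 163 and 165 CPM in CTL. All lcat OE libraries lay below CTL (log2 fold change -0.35, SE 0.10, adjusted p = 0.0246). The next enzyme, the lyase encoded by hacl1, had 33.9, 36.8 and 31.2 CPM in lcat OE and 26.5, 22.5 and 26.0 CPM in CTL, without overlap (log2 fold change 0.44, SE 0.12, adjusted p = 0.0153). Leaving out lcat OE 1 (adjusted p = 0.081), lcat OE 2 (0.0623), CTL 1 (0.102), CTL 2 (0.0584) or CTL 3 (0.0632) ended the phyh call, which ranged from 0.00375 to 0.102 over 14 alternatives. A fit with the replicate number as a block (0.0667) ended the phyh call too. The hacl1 call was lost without lcat OE 2 (0.0546) or CTL 2 (0.0814), within 0.00887 to 0.229, and with library totals (0.0851) or log2(TPM + 1) (0.229). In TPM phyh separated the groups more widely, at 56.2 to 63.5 in lcat OE and 85.8 to 88.3 in CTL, while hacl1 overlapped. Catalase, the peroxide-removing enzyme encoded by cat, had 688, 834 and 896 CPM in lcat OE and 757, 634 and 663 CPM in CTL. These overlapped, and the log2 fold change of 0.24 (SE 0.13) did not pass (adjusted p = 0.188, 0 of 14 alternatives past the threshold).

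Fewer genes of the import and assembly machinery passed the test. The soluble receptors pex5 and pex7 recognise targeting signals on matrix enzymes. Expression of pex5 was 22.5, 23.7 and 23.8 CPM in lcat OE and 18.2, 20.2 and 19.3 CPM in CTL, and that of pex7 8.30 to 9.39 CPM in lcat OE and 6.54 to 7.83 CPM in CTL. Neither pair of groups overlapped in CPM, and neither gene passed (0.28 on the log2 scale for both, adjusted p = 0.0694 for pex5 and 0.161 for pex7). For pex5lb, a relative of the receptor known in mammals mainly from neurons, 0 counts were found in lcat OE and at most 3 per library in CTL, at or under the floor that a count of 0 allows. The docking factors pex13 and pex14 overlapped between the groups in CPM, with log2 fold changes of 0.20 (SE 0.13, adjusted p = 0.253) and -0.06 (SE 0.11, adjusted p = 0.698). In TPM pex14 did not overlap, at 4.35 to 4.94 in lcat OE and 5.24 to 5.87 in CTL.

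Peroxins of the ubiquitin ligase and of the ATPase that returns the receptors to the cytosol were among the rarest members. The ligase genes pex2 and pex10 did not pass. Levels of pex2 were 3.54, 7.50 and 5.70 CPM in lcat OE and 5.25 to 7.03 CPM in CTL, with lcat OE 1 the lowest and lcat OE 2 the highest of all 6 libraries. For pex10 they were 3.23 to 4.05 CPM in lcat OE and 2.14 to 3.26 CPM in CTL (log2 fold change 0.51, SE 0.22, adjusted p = 0.101), and without CTL 1 the value was 0.70 (adjusted p = 0.0495, within 0.0495 to 0.286 over 13 alternatives). The ATPase gene pex6 fell. It had 3.58, 2.53 and 4.3 CPM in lcat OE and 6.35, 5.73 and 4.98 CPM in CTL, from 63 to 150 counts per library, and the groups did not overlap (log2 fold change -0.72, SE 0.21, adjusted p = 0.0255, 1.64-fold lower). Its membrane anchor gene pex26 had 11.5 to 13.8 CPM in lcat OE and 11.5 to 12.8 CPM in CTL (log2 fold change 0.04, SE 0.12, adjusted p = 0.831). The pex6 call was lost without lcat OE 1 (adjusted p = 0.0538), lcat OE 2 (0.0847), CTL 1 (0.0806) or CTL 2 (0.0653), within 0.0132 to 0.0847 over 14 alternatives.

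**Figure D4:**
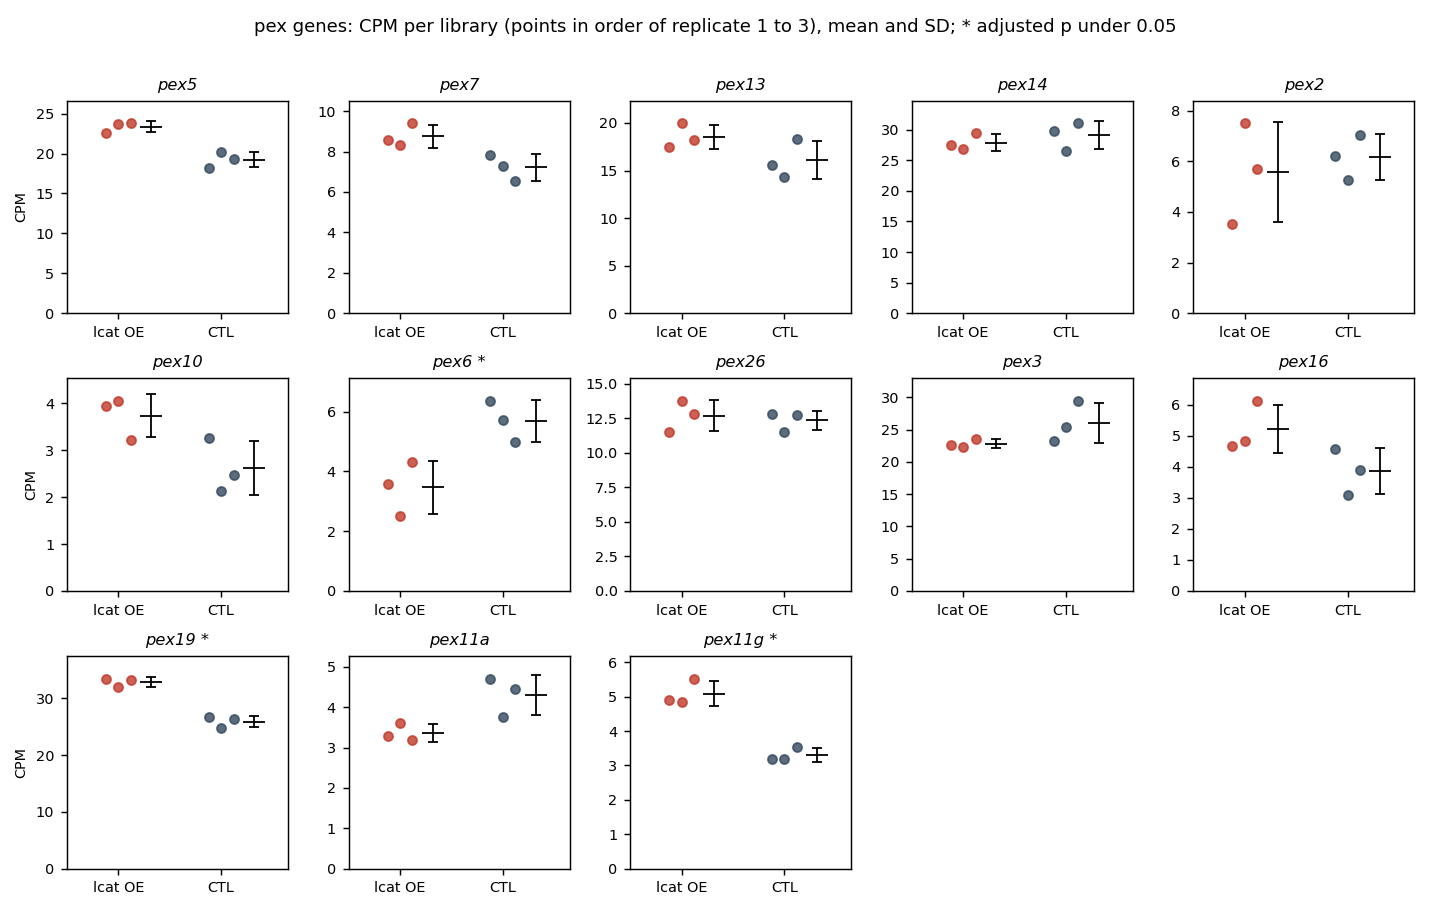
CPM per library (y axes, each from 0) of the 13 tested pex genes in lcat OE (left in each panel) and CTL (right), with the mean and SD beside the 3 points and an asterisk where the adjusted p was under 0.05. The groups are apart and past the threshold for pex6, lower in lcat OE, and for pex19 and pex11g, higher in lcat OE.

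Genes for membrane assembly and division gave 2 of the 3 pex calls, both higher. The gene pex19 encodes the chaperone that carries membrane proteins to the organelle. It had 33.4, 31.9 and 33.2 CPM in lcat OE and 26.6, 24.7 and 26.3 CPM in CTL, with narrow spreads and no overlap (log2 fold change 0.34, SE 0.10, adjusted p = 0.0262). Its docking partner pex3 had 22.2 to 23.6 CPM in lcat OE and 23.2 to 29.4 CPM in CTL (log2 fold change -0.19, SE 0.12, adjusted p = 0.25). The third assembly gene, pex16, had 4.69, 4.85 and 6.12 CPM in lcat OE and 3.11 to 4.57 CPM in CTL (0.43, SE 0.20, adjusted p = 0.122). The pex19 call was lost without lcat OE 1 (adjusted p = 0.0608), CTL 1 (0.054), CTL 2 (0.114) or CTL 3 (0.0749), within 0.0193 to 0.328 over 14 alternatives. Library totals (0.148), log2(TPM + 1) (0.328) and the replicate number as a block (0.0531) ended it too.

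The pex11 proteins elongate and divide peroxisomes, and their genes went different ways. In lcat OE pex11g had 4.89, 4.85 and 5.51 CPM, against 3.18, 3.19 and 3.54 CPM in CTL, without overlap (0.62 on the log2 scale, SE 0.17, adjusted p = 0.0169). In lcat OE pex11a had 3.29, 3.61 and 3.18 CPM, against 4.70, 3.75 and 4.44 CPM in CTL; all lcat OE libraries lay below CTL, but the log2 fold change of -0.35 (SE 0.18) did not pass (adjusted p = 0.162). The ratio of pex11g to pex11a in TPM was 2.42, 2.19 and 2.82 in lcat OE and 1.1, 1.37 and 1.3 in CTL. All lcat OE ratios were higher, with a difference of the mean log2 ratio of 0.97 (exact permutation test, two-sided p = 0.10, adjusted p = 0.14). In TPM pex11g was higher and pex11a lower in every lcat OE library than in CTL, which fixed this separation in advance. The pex11g call was lost without CTL 2 (adjusted p = 0.0581) and on log2(TPM + 1) (0.0593), within 0.0156 to 0.0593 over 13 alternatives.

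Without single libraries, fewer members were called, with more higher than lower each time. Leaving out CTL 2 left 4 higher and 2 lower of the 30 members, CTL 3 left 6 and 3, CTL 1 left 9 and 2, lcat OE 2 left 7 and 2, lcat OE 1 left 8 and 3, and lcat OE 3 left 10 and 4. Over all genes 3524 of 14482 were called without CTL 2, 3701 of 14556 without CTL 3 and 4005 of 14747 without CTL 1. These were 3517 of 14657 without lcat OE 2, 3885 of 14664 without lcat OE 1 and 4694 of 14786 without lcat OE 3. Leaving out CTL 2 thus put the members, at 6 of 30, below the share of all genes, and each other omission left them above it. Without CTL 2 the calls were 6 of 17 enzymes and transporters, a share above that of all genes, and 0 of 13 pex genes. By RefSeq gene models, 12 members overlap another gene, among them the called acox3, ehhadh, eci2, phyh and pex19. No strand-specific step is stated, so reads of such partners cannot be told apart. The called scp2b, amacr, pecr and decr2 overlap no listed gene there.

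Other genes of the organelle, from a list of 54 names of which 51 were found and 47 tested, showed 13 higher and 3 lower in lcat OE, 34.0% of the list. Of all genes 32.6% were called. The list had a median log2 fold change of 0.22. Of its 16 called genes 4 were past 2-fold, where 2339 of all 4596 called genes were. The reductase gene far1, which makes fatty alcohols for ether lipids, had 4.32, 4.01 and 3.79 CPM in lcat OE and 0.762, 1.29 and 0.946 CPM in CTL (log2 fold change 2.01, SE 0.25, adjusted p = 0.000261). The dehydrogenase/reductase gene dhrs4 had 55.6, 61.7 and 52.5 CPM in lcat OE and 22.8, 19.2 and 15.0 CPM in CTL (1.58, SE 0.15, adjusted p = 5.71e-05). Both were separated without overlap and called under every alternative that gave a value. The oxidase gene pipox, which acts on pipecolic acid, also rose (1.3, SE 0.25), as did the membrane protein gene pxmp4 (0.94, SE 0.21).

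Oxidases and antioxidant genes of the list rose by less than 2-fold. They included hao2, a hydroxyacid oxidase gene (log2 fold change 0.56, SE 0.10), urad, which acts in urate breakdown (0.88, SE 0.11), and the glutathione transferase gene gstk1 (0.77, SE 0.11). The dismutase gene sod1, mostly cytosolic, was at 0.58 (SE 0.11) and mpv17, known in mammals from the inner mitochondrial membrane, at 0.76 (SE 0.14). Lower in lcat OE were mlycd, the malonyl-CoA decarboxylase gene (-1.89, SE 0.18), the epoxide hydrolase gene ephx2 (-0.73, SE 0.11) and the fission factor gene mff (-0.49, SE 0.16, past the threshold under 7 of 14 alternatives). By the limma test on log2(TPM + 1) the list had 9 higher and 10 lower, and without lcat OE 3 it had 16 higher and 7 lower.

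**Figure D5:**
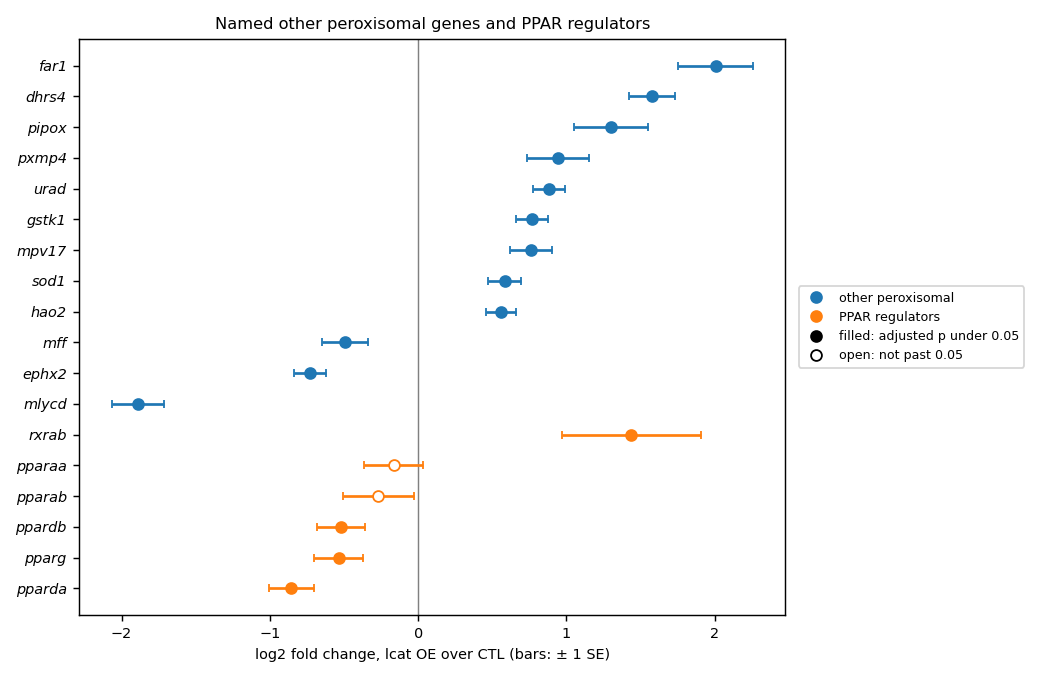
Log2 fold change of lcat OE over CTL (x axis, bars ± 1 standard error) for the 18 named genes of the lists of other peroxisomal genes and of PPAR and RXR receptors (y axis), filled where the adjusted p was under 0.05. Most filled peroxisomal points lie right of 0, up to far1 at 2.01, and mlycd lies farthest left at -1.89; most were chosen for a small p, so the plot does not show the lists as a whole.

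Receptors of the PPAR family control many genes of fatty acid oxidation in mammals, PPARα being the main one in liver. Of 12 tested receptor and coactivator genes 1 rose and 3 fell, 33.3% of them, and 10 of 12 fold changes were below 0 (median -0.29), where 32.6% of all genes were called. The gene pparda had 32.5, 27.9 and 38.8 CPM in lcat OE and 70.2, 54.7 and 54.5 CPM in CTL, without overlap (log2 fold change -0.86, SE 0.15, adjusted p = 0.00185). Also lower were ppardb (-0.52, adjusted p = 0.0317) and pparg (-0.54, adjusted p = 0.0307), and rxrab was higher (1.44, adjusted p = 0.0376). These passed under 8 of 14, 9 of 14 and 6 of 13 alternatives. The rare rxrab had 5 to 43 counts per library, and its log2 fold change ran from 0.42 to 1.99 over the alternatives. The PPARα genes pparaa (-0.17, SE 0.20, adjusted p = 0.564) and pparab (-0.27, SE 0.24, adjusted p = 0.421) did not pass and overlapped between the groups in CPM. In TPM pparab did not overlap, at 1.55 to 2.74 in lcat OE and 2.85 to 3.34 in CTL.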

How the data were processed

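RNA of sorted hepatocytes was measured in 6 libraries, grouped by their titles. The authors deposited 1 table with estimated counts (expected counts), TPM, FPKM and scaled counts per library; the deposited scaled counts are a signal nearly proportional to the counts in each library, the ratio of both spreading by 0.859% to 0.99% among genes above 100 counts. Tools listed by the submitters' processing notes are RSEM 1.3.1, Bowtie2 2.3.4.3, HISAT and DESeq2 1.4.5, with the build GRCz11; for their roles, the annotation and filters the sources used here give nothing. Of the deposited values, the FPKM, scaled counts and group means were not used in tests. TPM gave levels between genes and ratios.

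The estimated counts were rounded to whole numbers. The test was the robust quasi-likelihood F test of edgeR 4.0.16 (R 4.3.3) after filterByExpr and TMM scaling, without covariates, and Benjamini-Hochberg adjustment over 14096 genes and a threshold of 0.05. The standard error of a log2 fold change was taken as its size over the root of F. CPM use TMM-scaled totals. Ratios were compared by exact permutation tests (scipy 1.17.1). Pairs of replicates differed beyond sampling noise, with a chi-square of 11.7 to 37.7 per degree of freedom. The fit was checked on simulated data, where 16.4% of 1.5-fold, 64.2% of 2-fold and 97% of 4-fold changes were recovered. The spread between simulated libraries was set in advance and not taken from these libraries, so these shares do not carry over to the members. A member that was not called is not thereby shown to be unchanged. The floor for a count of 0, 3 counts, covers counting error only.

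The members, lists, ratios and tests were chosen with earlier results of these data known. Named were all members, lcat, fabp10a and the 12 genes with the smallest p past the threshold from the lists of other peroxisomal genes and PPAR regulators; mff, ppardb, pparg, rxrab, pparaa and pparab were added after their values were seen. Some further results are not reported here. Names were matched by symbol or through the NCBI gene number in a RefSeq gene table (GRCz12tu), also used for overlapping genes. Alternatives were DESeq2 size factors, library totals, other filters, DESeq2 1.42.0, a replicate block, limma 3.58.1 on log2(TPM + 1), offsets for effective length and leaving out each library.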

Additional observations from a re-analysis of the deposited data

How the results depend on the processing

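Among single-gene values under 14 alternatives, 382 kept their direction and side of the threshold, 50 lost a call, 4 gained one and 7 changed sign, each of the last for a gene that was not called. On log2(TPM + 1) fabp10a was at -0.0253 and pex26 at -0.13, and with library totals pex26 was at -0.0516. Without single libraries hsd17b4 ranged from -0.119 to 0.0135, pex2 from -0.418 to 0.113 and pex26 from -0.0151 to 0.121. Counts of called enzymes and transporters (8 higher, 4 lower) became 4 higher with library totals, 3 higher on log2(TPM + 1) and 2 lower with the replicate block. Without single libraries they ranged from 4 to 8 higher and 2 to 3 lower. Pex calls (2 higher, 1 lower) became 1 higher with library totals and with the replicate block, and 0 higher on log2(TPM + 1). With at least 5 CPM in 3 libraries they also became 1 higher, but there 9 pex genes were tested and pex11g was filtered out. Without single libraries pex calls ranged from 0 to 2 higher and 0 to 1 lower. Other peroxisomal genes (3 lower) had 5 lower with library totals and with at least 5 CPM in 3 libraries, 10 lower on log2(TPM + 1), and 2 to 7 lower without single libraries. Calls over all genes (2293 higher, 2303 lower) became 1335 higher and 1369 lower with at least 5 CPM in 3 libraries, where 6580 genes were tested, and 1318 higher on log2(TPM + 1). The cause of these shifts was not tested. No pairing by replicate number was seen: the correlations of deviations from the group means were -0.05, -0.03 and 0.02 for the numbers 1 to 3. Of 6 libraries 1 correlated best with its own number. With 3 libraries per group such correlations cannot tell whether libraries of the same number shared a clutch or sort. The fit with the replicate block gave 2040 higher and 2152 lower genes in all, 7 higher and 2 lower enzymes and transporters and 1 higher and 1 lower pex gene. In that fit the calls of abcd3a (adjusted p = 0.0627), phyh (0.0667), eci2 (0.0679) and pex19 (0.0531) missed the threshold. Tested pex genes had 53 to 813 counts per library, which limits the precision of the rarer ones. Enzymes and transporters had 36 to 26072. Whether counts played a part in the number of pex calls was not tested.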
